A study of Mus musculus with 6 samples.

Results

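The genes of the activator protein-1 (AP-1) transcription factors were examined in lungs of mice with and without a functional dimer interface of the glucocorticoid receptor (GR) after hemorrhagic shock (HS). The members were the 10 rows of the deposited count table, out of 54532 genes, whose symbol is Fos, Fosb, Fosl1, Fosl2, Jun, Junb, Jund, Atf3, Batf or Jdp2. Bulk RNA-sequencing covered 6 lungs, 3 of GR+/+ and 3 of GRdim/dim mice, with 1 library per mouse. GRdim/dim mice carry a point mutation in Nr3c1, the GR gene, in every cell, so the libraries cannot assign a difference to the receptor of one lung cell type. The GR+/+ controls were littermates on the same 129/SvEv x C57BL/6 background. All mice were 10 to 16 weeks old, of both sexes in unequal numbers per genotype, and underwent 1 h of HS at a mean arterial pressure of 35 mmHg followed by 4 h of resuscitation with norepinephrine and ventilation under anesthesia, 1 mouse per day. No lung without HS was analysed here, so each value compares genotypes after shock and none measures a response to shock.

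AP-1 is a dimer of basic leucine zipper proteins. Jun proteins pair with each other or with Fos proteins, whereas Fos proteins need a Jun partner, and the makeup of the dimer sets which DNA sites it prefers and how strongly it activates. Several members, such as Fos, are early-response genes with short-lived transcripts. These are switched on within minutes by mitogen-activated protein (MAP) kinases, stretch, cytokines or oxidative stress. In the lung, AP-1 drives genes of inflammation and matrix remodeling, and GR is known to bind to AP-1 and repress it as a monomer, an activity for which receptor dimerization is not held to be needed.

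Library totals were 16361747 to 32082940 counts in GR+/+ and 15687734 to 24444604 counts in GRdim/dim lungs. Levels are given as CPM, counts scaled to a common library size with TMM factors, and differences as log2 fold changes of GRdim/dim over GR+/+ with the standard error (SE) of edgeR's fit. The mutated gene had a mean level of 148 CPM (SD 12.2, n = 3) in GR+/+ lungs and of 143 CPM (SD 20.2, n = 3) in mutant lungs. Gene counts do not show the point mutation in Nr3c1. Lung markers were present in every library, for example summed alveolar type 2 markers at 16504 to 24105 CPM in GR+/+ and 16511 to 24744 CPM in GRdim/dim lungs. B cell, T cell, NK cell and neutrophil markers had mostly higher estimates in GRdim/dim lungs, and edgeR's test called 0 of them. At an unadjusted p under 0.05 in edgeR's test, 4 of 6 B cell, 3 of 6 T cell and 2 of 5 NK cell markers were higher. So were 3 of the 8 neutrophil markers tested. At this threshold 4.91% of all genes tested were higher and 4.68% lower. Alveolar macrophage markers mostly went the other way, with 1 of 5 higher, 4 lower and a median log2 fold change of -0.39. At an unadjusted p under 0.05 they were split, with Car4 higher at 0.72 (SE 0.25) and Chil3 lower at -0.88 (SE 0.21). DESeq2 called as higher 2 of the 8 neutrophil markers that passed edgeR's filter, and also Camp, which did not pass it (DESeq2 adjusted p = 0.0121). It called 1 of the 5 alveolar macrophage markers, Chil3, as lower. Of the 4 endothelial markers it called 1, Cldn5, as higher (DESeq2 adjusted p = 0.0273), while the other 3 had lower estimates. Among all genes with an adjusted p, DESeq2 called 0.817% as higher and 0.879% as lower. Of all genes tested, 50.9% had a higher estimate. The summed level of the markers was 50.6 to 120.0 CPM in GR+/+ and 128 to 440 CPM in GRdim/dim lungs for B cells (6 of 6 markers higher), 17.4 to 33.2 and 33.0 to 48.0 CPM for T cells (6 of 6), 5.56 to 14.7 and 16.9 to 26.4 CPM for NK cells (5 of 5) and 275 to 521 and 371 to 1124 CPM for neutrophils (7 of the 8 tested). The sums overlapped between the genotypes for T cells and neutrophils and were separate for B cells and NK cells. Summed ciliated cell markers were at 165 to 341 CPM in GR+/+ and 108 to 162 CPM in GRdim/dim lungs (0 of 3 higher). No marker of these lists was at 0 in all 6 libraries. The part of these cells in the AP-1 levels was not tested, and in whole lung RNA more cells of a type cannot be told apart from more RNA per cell.

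Promoter sequences are shown for Jun and Fos, whose names define the family and whose windows hold motifs of the family. They are the 250 bases before the RefSeq start site of GRCm38.p6, 5′ to 3′ on the strand of the gene. Capitals in the Jun promoter (chr4:95052223-95052472, minus strand) mark TGACATCA, the AP-1 variant known from Jun autoregulation, which begins 45 bases before the start site. Capitals in the Fos promoter (chr12:85473640-85473889, plus strand) mark TGACGT, the core of a cAMP response element, which begins 66 bases before the start site, and the TATA box TATAAA, which begins 33 bases before it.
Jun: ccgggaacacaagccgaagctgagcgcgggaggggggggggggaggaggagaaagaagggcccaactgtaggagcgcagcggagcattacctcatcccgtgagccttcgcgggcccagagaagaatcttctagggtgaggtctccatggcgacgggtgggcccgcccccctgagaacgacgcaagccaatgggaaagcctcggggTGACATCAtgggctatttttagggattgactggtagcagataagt
Fos: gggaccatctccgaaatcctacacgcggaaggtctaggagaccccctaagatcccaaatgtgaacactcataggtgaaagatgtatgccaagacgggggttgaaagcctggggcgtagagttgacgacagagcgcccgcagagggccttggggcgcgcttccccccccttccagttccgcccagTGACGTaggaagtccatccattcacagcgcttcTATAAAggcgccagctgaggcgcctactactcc

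The same TGACGT core, in capitals with 10 bases on each side, was found in the windows of Atf3 (chr1:191183326-191183351, minus strand, read as ACGTCA), Batf (chr12:85686612-85686637, plus strand) and Jdp2 (chr12:85599292-85599317, plus strand). These sites are shown because no other member window held it.
Atf3: taatagcattACGTCAgcctgggatt
Batf: tctaacttgtTGACGTttccgcccat
Jdp2: cgtccccctcTGACGTgtggagctgg

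RefSeq windows of 300 bases, 250 before and 50 after a start site, were given for 9 of the 10 members (11 windows, with none for Fosl1) and were searched on both strands beside all 32851 windows of the genome. TGACGT occurred in 4 of the 11 member windows and in 7.51% of all windows. TGACATCA occurred in 1 of the 11 and in 3.62% of all, and TATAAA in 2 of the 11, those of Fos and Junb, and in 13.6% of all. The AP-1 site TGAGTCA, the full cAMP response element TGACGTCA, which contains TGACGT, and AGAACA, the core that a single GR binds, were in 0 of the 11 member windows and in 5.20%, 1.79% and 19.0% of all windows. The palindromic glucocorticoid response element and the CArG box of serum response factor were also in 0 of the 11, and in 0.00913% and 1.63% of all. The windows with TGACGT had 58.7% (Fos), 64.7% (Atf3), 49.7% (Batf) and 74.3% (Jdp2) GC, beside a median of 52.7% for all windows. The shares were not matched for base composition. A letter match does not show binding, and these windows hold none of the distant sites a factor may use. The Fosl2 window held none of these motifs. All of its 300 bases lie in the 5′ untranslated region that GENCODE M21 annotates from a start further upstream, and its sequence is therefore not printed. The Jund window (chr8:70697489-70697788) ends upstream of the Jund gene of the count table, which starts at 70698949. It holds 0 bases of annotated untranslated region, so the motif counts may not cover the promoter of the counted Jund gene.

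All 10 members passed edgeR's filter on low counts. At an adjusted p under 0.05 and a log2 fold change beyond 0.5, 0 of the 10 were called by edgeR's quasi-likelihood test, beside 0.169% of the 16568 genes tested (0.0724% higher and 0.0966% lower). At an unadjusted p under 0.05, edgeR's test had 1 member higher, Fosl2, and 1 lower, Jun, beside 4.91% and 4.68% of all genes tested. DESeq2, run with the same thresholds, called these same genes, Fosl2 as higher and Jun as lower, beside 0.817% and 0.879% of the 16150 genes to which it gave an adjusted p. Genotypes were separate, with no overlap of single lungs, in the same 1 higher and 1 lower member, beside 7.77% and 7.05% of all genes tested. With 6 members higher and 4 lower, the median log2 fold change was 0.42, beside 0.01 over all genes tested.

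**Figure D1:**
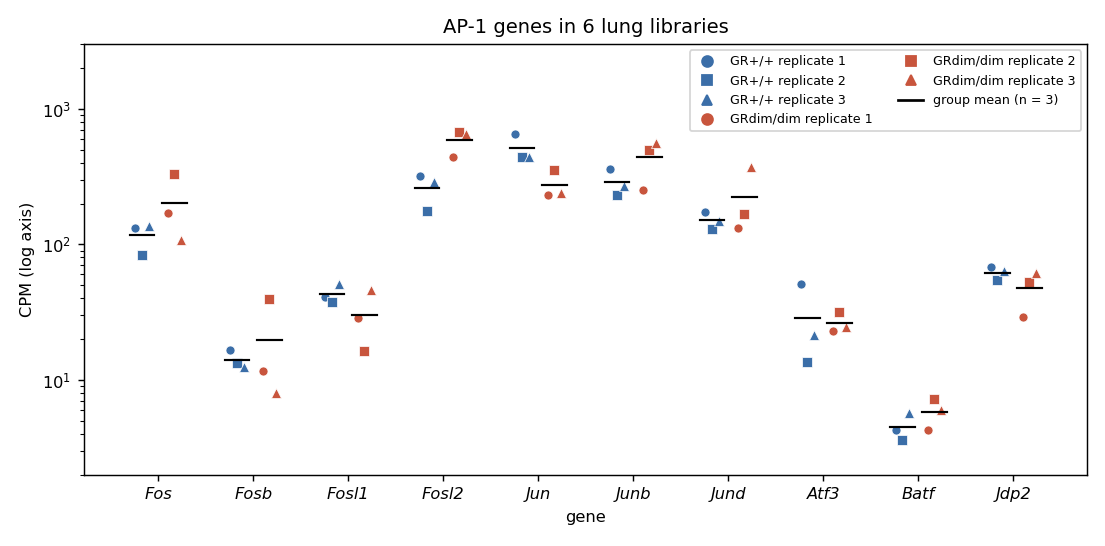
Level of each AP-1 gene in each of the 6 lung libraries, in CPM on a log axis. Points are single libraries (GR+/+ blue, GRdim/dim red, shapes give the replicate) and black lines are group means (n = 3). The groups are separate for Fosl2, with GRdim/dim above GR+/+, and for Jun, with GRdim/dim below GR+/+, while the other 8 genes overlap.

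Among the Fos-type genes, Fosl2 (ENSMUSG00000029135, chr5:32135801-32157842, plus strand) encodes Fra-2, a Fos protein without the C-terminal transactivation domain of Fos. Its level was 319, 175 and 290.5 CPM in GR+/+ replicates 1, 2 and 3, and 439, 672 and 653 CPM in GRdim/dim replicates 1, 2 and 3. Every GRdim/dim lung lay above every GR+/+ lung, and GR+/+ replicate 2 was the lowest of the 6. The GRdim/dim mean of 588 ± 129 CPM stood against a GR+/+ mean of 262 ± 76.5 CPM (SD, n = 3 each), a log2 fold change of 1.17 (SE 0.26, unadjusted 95% interval 0.58 to 1.75), or 2.25-fold. The unadjusted p was 0.00116 and the adjusted p 0.167 in edgeR's test, where Fosl2 ranked 56 by p among the higher genes. DESeq2 gave an adjusted p of 0.00165, and over all alternatives the adjusted p ran from 1.58e-05 to 0.339. With any single library left out, the log2 fold change stayed between 0.95 and 1.35.

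Fos (ENSMUSG00000021250, chr12:85473890-85477273, plus strand), the prototype early-response member, was at 132, 83.9 and 136 CPM in GR+/+ and at 171, 328 and 108 CPM in GRdim/dim lungs. GRdim/dim replicate 2 was far above the rest, and replicate 3 of the same genotype lay among the GR+/+ lungs. The log2 fold change was 0.79 (SE 0.36, unadjusted p = 0.0539 and adjusted p = 0.533 in edgeR's test), and it was 0.25 without GRdim/dim replicate 2. Fosb (ENSMUSG00000003545, chr7:19302696-19310051, minus strand), the inducible relative of Fos, was at 16.6, 13.3 and 12.4 CPM in GR+/+ and at 11.6, 39.2 and 8.01 CPM in GRdim/dim lungs. It had its highest and its lowest value within GRdim/dim. The log2 fold change of 0.48 (SE 0.50, adjusted p = 0.833 in edgeR's test) became -0.52 without GRdim/dim replicate 2, so its direction rests on that lung.

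Fosl1 (ENSMUSG00000024912, chr19:5447703-5455945, plus strand), which encodes Fra-1, was at 41.2, 37.5 and 50.8 CPM in GR+/+ and at 28.7, 16.4 and 45.8 CPM in GRdim/dim lungs. GRdim/dim replicate 2, the highest lung for Fos, Fosb and Fosl2, was the lowest for Fosl1. The log2 fold change was -0.52 (SE 0.32, adjusted p = 0.675 in edgeR's test), with a range of -0.94 to -0.21 over left-out libraries. In GENCODE M21, exons of Ccdc85b on the opposite strand cover 1163 bases, or 57.2%, of the annotated exon bases of Fosl1. Ccdc85b had 704 to 2292 counts per library beside 394 to 1600 for Fosl1. In the deposited table, however, Ccdc85b lies at chr19:5456789-5457397, beyond the end of Fosl1, so the genes share no base there. The use of strand in counting is not given in the sources used here.

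Among the Jun-type genes, Jun (ENSMUSG00000052684, chr4:95049034-95052222, minus strand), the strongest activator of this group and a target of Jun N-terminal kinase, had the opposite pattern to Fosl2. Its level was 652, 439 and 437 CPM in GR+/+ and 230.1, 350.3 and 239 CPM in GRdim/dim replicates 1, 2 and 3. Every GRdim/dim lung lay below every GR+/+ lung. The GRdim/dim mean of 273 ± 67.0 CPM stood against a GR+/+ mean of 509 ± 123 CPM (SD, n = 3 each), a log2 fold change of -0.90 (SE 0.24, unadjusted 95% interval -1.43 to -0.37). The unadjusted p was 0.00350 and the adjusted p 0.251 in edgeR's test, where Jun ranked 126 by p among the lower genes. DESeq2 gave an adjusted p of 0.0221, and the range over all alternatives was 0.00264 to 0.568. When any 1 lung was omitted, the estimate lay between -1.12 and -0.68. The antisense gene Junos shares 232 exon bases with Jun, 7.27% of its exon bases, and had 78 to 211 counts per library beside 3698 to 13766 for Jun.

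Junb (ENSMUSG00000052837, chr8:84974484-84978718, minus strand), a weaker activator that can oppose Jun, was at 357, 232 and 268 CPM in GR+/+ and at 253, 495 and 563 CPM in GRdim/dim lungs. GRdim/dim replicates 2 and 3 lay above all GR+/+ lungs, and replicate 1 lay among them. The log2 fold change was 0.61 (SE 0.29, unadjusted p = 0.0610 and adjusted p = 0.551 in edgeR's test), from 0.39 to 0.90 over left-out libraries. Jund (ENSMUSG00000071076, chr8:70698949-70700616, plus strand), the member that is expressed without a stimulus in most tissues, was at 173, 130.5 and 149 CPM in GR+/+ and at 131, 166 and 375 CPM in GRdim/dim lungs. The high value was that of GRdim/dim replicate 3 alone. Its log2 fold change of 0.57 (SE 0.34, adjusted p = 0.666 in edgeR's test) was -0.02 without that lung. On the opposite strand, Gm11175 covers 52.6% of the Jund exon bases and had 0 counts in every library, and Prdx2 covers 7.52% of those of Junb.

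The other members act mainly as repressors or as special partners, and the lungs of the genotypes overlapped for each of them. Atf3 (ENSMUSG00000026628, chr1:191170296-191218039, minus strand), a stress-induced gene whose protein can repress transcription as a homodimer, was at 50.8, 13.7 and 21.3 CPM in GR+/+ and at 23.1, 31.9 and 24.5 CPM in GRdim/dim lungs. GR+/+ replicate 1 was the highest and replicate 2 the lowest of all 6. The log2 fold change of -0.10 (SE 0.40, adjusted p = 0.968 in edgeR's test) became 0.60 without GR+/+ replicate 1. Batf (ENSMUSG00000034266, chr12:85686669-85709087, plus strand), a partner of Jun proteins in lymphocytes and other immune cells, was at 4.30, 3.60 and 5.69 CPM in GR+/+ and at 4.26, 7.27 and 6.01 CPM in GRdim/dim lungs, with a log2 fold change of 0.36 (SE 0.32, adjusted p = 0.792 in edgeR's test). Its SE was larger than that of Jun or Fosl2 but smaller than those of Fos, Jund, Atf3 and Fosb, with 60 to 179 counts per library. Jdp2 (ENSMUSG00000034271, chr12:85599027-85639878, plus strand), a repressor that pairs with Jun, was at 67.7, 54.1 and 63.2 CPM in GR+/+ and at 29.1, 53.1 and 61.5 CPM in GRdim/dim lungs. Only GRdim/dim replicate 1 stood apart, and the log2 fold change was -0.37 (SE 0.25, adjusted p = 0.721 in edgeR's test). An RNA gene on the opposite strand, Gm47863, shares 7.68% of the Jdp2 exon bases and had 24 to 33 counts per library.

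**Figure D2:**
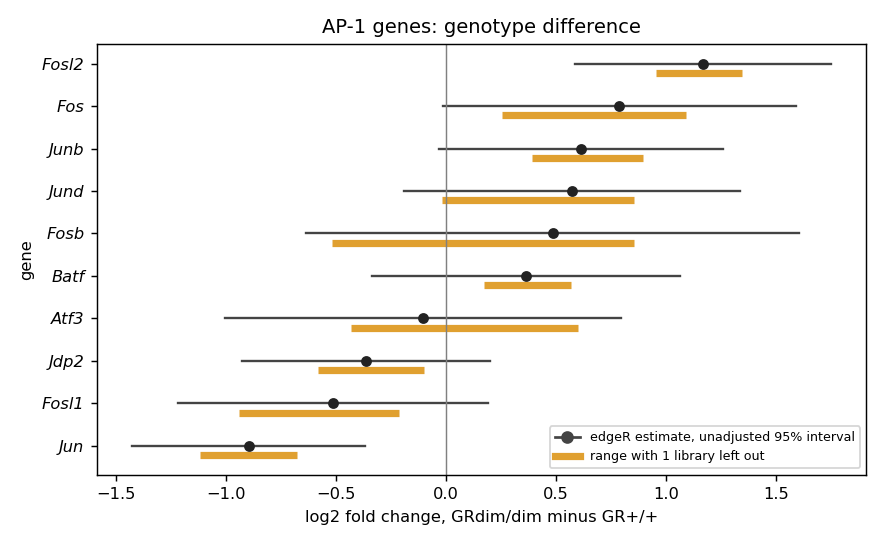
Log2 fold change of each AP-1 gene, GRdim/dim minus GR+/+. Points are edgeR estimates with unadjusted 95% intervals (black lines), and orange bars span the estimates when each of the 6 libraries is left out in turn. The intervals of Fosl2 (0.58 to 1.75) and Jun (-1.43 to -0.37) do not include 0, and the orange bars of Fosb, Jund and Atf3 cross 0.

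For single values, the exact two-sided permutation test over the 6 libraries cannot give a p under 0.1. This exact permutation test gave p = 0.1, the smallest possible, for Fosl2 and for Jun, and between 0.2 and 1 for the other 8 genes. The intervals of those 8 genes all include 0. For Fos the interval was -0.02 to 1.59 and for Junb -0.03 to 1.26, so that both reached beyond a 2-fold difference.

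Levels of different genes were compared per kilobase of gene length (CPM per kb). In GR+/+ lungs Jun had the highest mean level, 159.7 ± 38.7 CPM per kb, followed by Junb with 124 ± 27.8, Jund with 90.3 ± 12.8 and Fos with 49.9 ± 12.3 CPM per kb (SD, n = 3 each). Jdp2 had 28.7 ± 3.22, Fosl2 27.0 ± 7.90, Fosl1 25.3 ± 4.04 and Atf3 13.3 ± 9.10 CPM per kb, and Batf and Fosb had 3.22 ± 0.756 and 2.26 ± 0.354 CPM per kb. In this order the libraries of neighbours did not overlap between Jund and Fos, Fos and Jdp2, and Atf3 and Batf, and they overlapped between all other neighbours. In GRdim/dim lungs the order began with Junb at 190.0 ± 71.0 and Jund at 134 ± 79.0 CPM per kb, and Fos at 86.0 ± 48.1 and Jun at 85.6 ± 21.01 CPM per kb came next. Fosl2 had 60.7 ± 13.4, Jdp2 22.3 ± 7.85, Fosl1 17.7 ± 8.66, Atf3 12.3 ± 2.19, Batf 4.16 ± 1.08 and Fosb 3.14 ± 2.73 CPM per kb. There the libraries of neighbours were separate between Jun and Fosl2, Fosl2 and Jdp2, and Atf3 and Batf.

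The makeup of the AP-1 transcript pool, taken as each gene's share of the summed CPM per kb of the 10 genes, is a description of levels that were already given. Jun made up 32.1%, 32.1% and 27.1% of the pool in GR+/+ and 17.0%, 15.8% and 10.3% in GRdim/dim lungs. Fosl2 made up 5.18%, 4.21% and 5.93% in GR+/+ and 10.7%, 10.01% and 9.23% in GRdim/dim lungs. The share of Junb was 23.6 ± 0.641% in GR+/+ and 30.1 ± 3.91% in GRdim/dim lungs, and that of Jdp2 5.55 ± 0.522% and 3.56 ± 0.369% (SD, n = 3 each). For these genes the shares of the genotypes did not overlap, although shares that sum to 100% cannot move independently. The pool itself overlapped between the genotypes, with 637, 429 and 506 CPM per kb in GR+/+ and 425, 694 and 730.1 CPM per kb in GRdim/dim lungs. So did the sum of the Jun-type genes, at 463, 317 and 343 against 260.5, 425 and 544 CPM per kb. The sum of the Fos-type genes was 116, 77.8 and 119.6 CPM per kb in GR+/+ and 137, 225 and 141 CPM per kb in GRdim/dim lungs, without overlap. This sum includes Fosl2, which was already separate by itself. The ratio of the Fos-type to the Jun-type sum overlapped, at 0.250, 0.246 and 0.349 in GR+/+ and 0.525, 0.529 and 0.260 in GRdim/dim lungs.

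Jun and Fosl2 were set against each other within each library, a pair chosen after their values had been seen. Counts of Fosl2 were 0.490, 0.399 and 0.664 times those of Jun in GR+/+ lungs and 1.91, 1.92 and 2.73 times in GRdim/dim lungs. Such a ratio does not depend on the scaling of the libraries. The lowest GRdim/dim value lay well above the highest GR+/+ value, with means of 2.19 ± 0.472 and 0.518 ± 0.135 (SD, n = 3 each). This separation follows from those of Fosl2 and Jun already given and is not a further result.

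**Figure D3:**
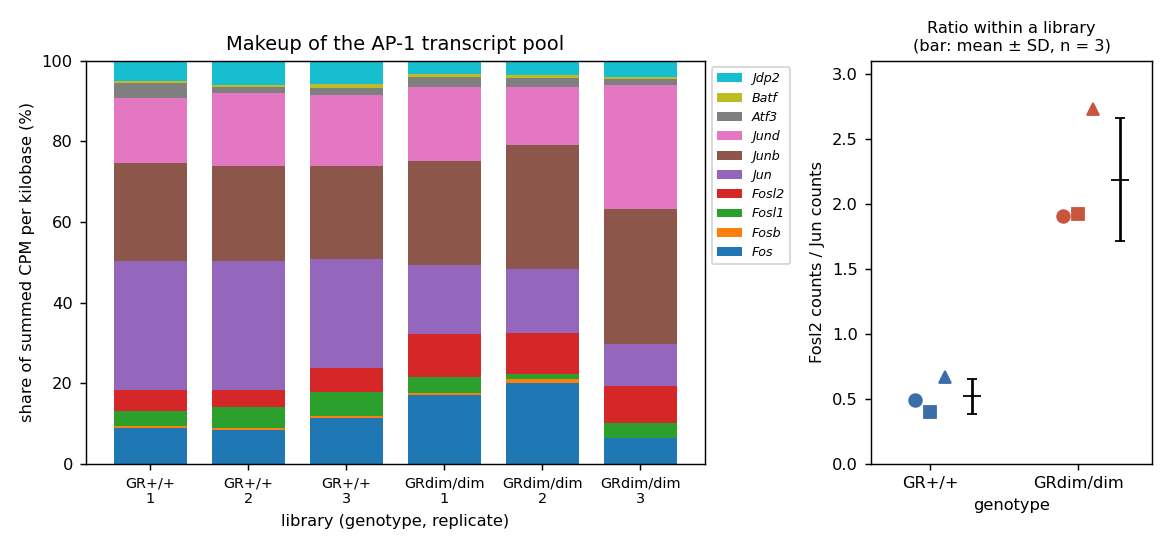
Left, share of each AP-1 gene in the summed CPM per kilobase of the 10 genes, in percent, for each library. Right, counts of Fosl2 divided by counts of Jun in each library, with the mean ± SD (n = 3). The Jun segment is 27.1% to 32.1% in GR+/+ and 10.3% to 17.0% in GRdim/dim lungs, and the ratio is 0.399 to 0.664 and 1.91 to 2.73.

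The members varied among themselves within a genotype. Over the 6 libraries, after subtraction of the genotype mean from log2 CPM, Pearson's r was 0.89 for Fos with Fosb, 0.82 for Fosl2 with Junb, 0.97 for Junb with Jdp2 and -0.94 for Fosb with Fosl1. Fosl2 and Jun, which differed in opposite directions between genotypes, had r = 0.61 within genotypes. These values describe 6 libraries and carry no test, since all genes of a library share its depth and its cell makeup. Among the genes most like Fosl2 in log2 CPM over all 6 libraries, out of 16568, were Pvr (r = 0.996) and Golt1b (r = 0.985). Those most like Jun were Eef2k (r = 0.986), Tecrl (r = 0.983) and Arsb (r = 0.978). Their own log2 fold changes were smaller than those of Fosl2 and Jun except for Tecrl, at -1.65 (SE 0.39, adjusted p = 0.195 in edgeR's test).

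Genes around AP-1 were taken in 6 lists, and edgeR's test called 0 genes in each of them. Upstream, 17 genes of the MAP kinase cascades had a median log2 fold change of 0.10, and 0 had an unadjusted p under 0.05 in either direction. The smallest p among its higher genes belonged to Mapk11, the gene of p38 beta, at 0.41 (SE 0.22), and the smallest among its lower genes to Mapk14, the gene of p38 alpha, at -0.17 (SE 0.18). Of 11 basic leucine zipper partners outside the family, which include Maf and activating transcription factor genes, 0 had an unadjusted p under 0.05, with a median of 0.13, with Batf2 at 0.78 (SE 0.37) and Atf7 at -0.17 (SE 0.22). The list of serum response factor, which switches on Fos, with its cofactors and Creb1 had a median of -0.04 over 7 genes. At an unadjusted p under 0.05, 1 of the 7 was lower. This was Elk1, a MAP kinase target that binds beside serum response factor, at 17.4, 14.1 and 18.1 CPM in GR+/+ and 10.9, 9.39 and 10.4 CPM in GRdim/dim lungs (log2 fold change -0.70, SE 0.22, adjusted p = 0.342 in edgeR's test). Its relative Elk4 was at 0.38 (SE 0.22). Of 7 genes of Jun protein turnover and cofactors (median -0.12), the acetyltransferase gene Ep300 had an unadjusted p under 0.05, with a log2 fold change of -0.44 (SE 0.19, adjusted p = 0.497 in edgeR's test), and Cop1, a ubiquitin ligase gene, was at 0.05 (SE 0.15).

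Other early-response genes were the list with the highest median, 0.57 over 11 genes. At an unadjusted p under 0.05, 6 of the 11 were higher and 1 was lower, beside 4.91% and 4.68% of all genes tested. The nuclear receptor genes Nr4a1, Nr4a2 and Nr4a3 had log2 fold changes of 1.78 (SE 0.57), 2.55 (SE 0.97) and 2.42 (SE 0.77), Egr2 of 1.16 (SE 0.35), Ier2 of 0.69 (SE 0.19) and Ier3 of 0.57 (SE 0.17), with adjusted p-values from 0.286 to 0.494 in edgeR's test. Nr4a1 was at 255, 73.1 and 144 CPM in GR+/+ and at 275, 992 and 353 CPM in GRdim/dim lungs, where replicate 2, the highest for Fos, was again the highest. Nr4a2 was at 20.9, 6.71 and 15.5 CPM in GR+/+ and at 15.7, 186 and 50.4 CPM in GRdim/dim lungs, and Nr4a3 at 12.7, 4.32 and 5.91 and at 7.22, 65.9 and 49.1 CPM, so that both overlapped between the genotypes. Without GRdim/dim replicate 2 the log2 fold changes were 0.999 for Nr4a1 (SE 0.42), 1.202 for Nr4a2 (SE 0.52) and 1.89 for Nr4a3 (SE 0.71). Egr2, a zinc finger gene, was at 12.6, 7.97 and 6.51 CPM in GR+/+ and at 30.4, 13.5 and 16.7 CPM in GRdim/dim lungs, and it was the 1 gene of the list that DESeq2 called. The lower gene was Arc, at 3.48 CPM or less in every lung, with a log2 fold change of -1.19 (SE 0.40, adjusted p = 0.374 in edgeR's test). Egr1, induced by the same kinases as Fos, had a log2 fold change of 0.00 (SE 0.32).

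Downstream, 18 of 20 textbook AP-1 targets were tested, with Mmp10 and Mmp13 below the filter on low counts. Their median log2 fold change was 0.39, with 13 higher and 5 lower. At an unadjusted p under 0.05, 1 of the 18 was higher and 1 was lower, close to the 4.91% and 4.68% of all genes tested. Plaur, the gene of the urokinase receptor, was at 102, 76.2 and 118 CPM in GR+/+ and at 124, 184 and 222 CPM in GRdim/dim lungs, without overlap (log2 fold change 0.83, SE 0.24, adjusted p = 0.297 in edgeR's test). Ccnd1, the cyclin D1 gene, was at 158, 109 and 146 CPM in GR+/+ and at 112, 87.9 and 101 CPM in GRdim/dim lungs (log2 fold change -0.45, SE 0.19, adjusted p = 0.477 in edgeR's test). Targets of inflammation such as Il6, at 0.97 (SE 0.47), and Ccl2, at 1.24 (SE 1.15), had wide errors at levels of at most 3.12 and 7.62 CPM. Ccl2 had 0 counts in GRdim/dim replicate 2. Cxcl2 was at 0.39 (SE 0.37), and Ptgs2 went the other way, at -0.49 (SE 0.35).

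**Figure D4:**
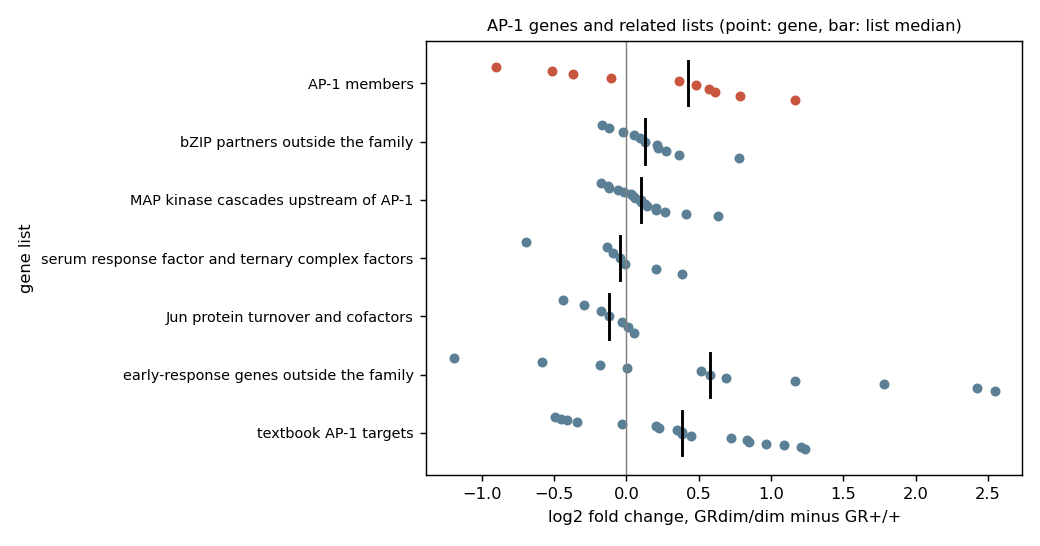
Log2 fold change, GRdim/dim minus GR+/+, of the AP-1 genes (red) and of the genes in 6 related lists (blue), with the median of each list as a black bar. The medians lie between -0.12, for Jun protein turnover and cofactors, and 0.57, for early-response genes outside the family, and that of the AP-1 genes is 0.42.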

How the data were processed

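Total RNA of 6 lungs was poly(A)-captured and sequenced as bulk libraries by the study's provider. The authors deposited raw counts per gene, whole numbers without normalization or pooling, with GRCm38 (mm10) coordinates. The aligner, counting tool and use of strand are not given in the sources used here, and the submitters' notes name DESeq2. Samples were grouped by the genotype in their labels. Replicates differed by more than sampling noise (chi-square of 19.2 to 62.9 per gene) and were kept apart.

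The test across genes was edgeR's robust quasi-likelihood test (version 4.0.16 under R 4.3.3, with filterByExpr and TMM factors) over all 6 libraries with genotype as the only term, and adjusted by Benjamini-Hochberg over the 16568 genes tested. Genes with an adjusted p under 0.05 and a log2 fold change beyond 0.5 were called. CPM used the TMM factors, log2 CPM a prior count of 2, and CPM per kb the gene length in the deposited table. Alternatives were RLE scaling, no filter, at least 10 counts in every library, DESeq2 1.42.0 with default settings, a block for the replicate number, a sex-linked expression covariate, calls by adjusted p alone and leaving out single libraries. The method was tested on simulated data.

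The members and the gene lists were chosen with earlier results of these data known. All members are named. In each related list, the genes called by edgeR and the gene with the smallest p in each direction are named, and for Fosl2 and Jun the 3 genes most like them, of which 1 is not reported here. Other list genes were named after their values were seen. Of the deposited gene IDs, 54409 were found in GENCODE M21, and 9 of the 10 members have identical coordinates there (all but Fosl1).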

Additional observations from a re-analysis of the deposited data

How the results depend on the processing

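The alternatives changed calls more than estimates. The 28 genes called in all became 29 with RLE scaling, 29 with at least 10 counts in every library, 20 with a covariate for sex-linked expression, 522 without a filter on low counts and 274 with DESeq2, and 4 to 22 with a library left out. The 0 AP-1 genes called became 3 without a filter (Fos, Fosl2 and Jun) and 2 with DESeq2 (Fosl2 and Jun), and stayed at 0 in all other edgeR fits. Among the early-response genes, 2 were called without a filter (Egr2 and Ier2), 1 with DESeq2 (Egr2), and 0 to 1 with a library left out (Nr4a3 without GRdim/dim replicate 1), and of the AP-1 targets 1 was called without a filter (Plaur). The cause of these differences was not tested. Directions reversed for Atf3 (log2 fold change 0.094 with the replicate block and -0.43 to 0.60 over left-out libraries, above 0 without GR+/+ replicate 1), Fosb (-0.52 to 0.86, below 0 without GRdim/dim replicate 2) and Jund (-0.020 to 0.85, below 0 without GRdim/dim replicate 3). The directions of the other 7 members held under every alternative. The deviations of same-numbered libraries from their genotype means correlated at 0.22, 0.04 and -0.05. They were not set against libraries of different numbers, so they cannot show whether the replicate numbers pair the samples. The fit with the number as a block called 34 genes and 0 AP-1 genes. The lowest count of a member was 60, in Batf, and counting error is largest there.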

Other observations

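Fos, Jdp2 and Batf are neighbours on chromosome 12, with gaps of 121.754 kb between Fos and Jdp2 and 46.791 kb between Jdp2 and Batf and 0 protein-coding genes in either gap. Their log2 fold changes were 0.79 (SE 0.36), -0.37 (SE 0.25) and 0.36 (SE 0.32), so that the member in the middle had the opposite sign to those on its flanks, and all were within errors that include 0. The lung with the highest level of Fos and of Batf was GRdim/dim replicate 2, whereas Jdp2 was highest in GR+/+ replicate 1. Jund and Junb lie on the same chromosome as well, with 164 protein-coding genes between them.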
